A study of Rattus norvegicus with 24 samples.

Results

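Single dorsal root ganglion (DRG) neurons of the rat were divided by how much Sprr1a RNA they held, and the neurons at either end were compared within each DRG sample. Sprr1a-high neurons held at least 100 CPM (UMIs of the gene per 1000000 UMIs of the cell), and Sprr1a-low neurons held under 10 CPM. Of 930 dye-labelled neurons that passed the limits on quality, 413 were Sprr1a-high and 282 were Sprr1a-low, 695 cells of the 1433 that passed in the whole series. The other 235 labelled neurons were intermediate. The members were thus selected on measured Sprr1a values, so Sprr1a itself was left out of every test.

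All rats were male Sprague-Dawley (SD) rats with no transgene. In spared nerve crush (SNC) the tibial nerve and the common peroneal nerve of the left side were crushed while the sural nerve stayed intact, and in the sham operation the sciatic nerve was laid open without any injury. Before the operation, fluorescent dyes had been injected into the nerve branches of the labelled animals, sham animals included, and single labelled neurons of the L4 and L5 DRG were then picked by hand. The labelled neurons came from 16 DRG samples in 17 libraries: sham gave 4 samples, SNC gave 4 after 1 day, 3 after 3 days and 5 after 7 days (sample S filled 2 libraries). A further 7 libraries, here called the added libraries, are labelled as neurons of sham rats at 0, 1, 3 or 7 days. The labels give the number of directly and indirectly injured cells of a library, but the dye of a single cell is not in its name, so crushed and uncrushed neurons could not be told apart. Neither the age of the rats nor the number of rats in a DRG sample is given in the sources used here, so p-values measure the spread between these samples. By the paper, at least 5 rats gave ganglia per time point, and there are 3 samples at 3 days. A DRG sample can therefore hold neurons of more than 1 rat, and its high and low neurons need not share a rat.

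Sprr1a encodes a small proline-rich protein that is best known from the cornified envelope of the skin, where transglutaminases cross-link it beneath the membrane. Sensory neurons normally hold little of it. After a peripheral axon is cut or crushed, Sprr1a RNA is switched on together with transcription factors such as Atf3, Jun and Sox11, growth proteins and the peptide galanin, while many genes for sensory channels and transmitters are turned down. The Sprr1a level of a neuron is therefore widely used as a sign of this cell-body response to axon injury.

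Within the labelled neurons, Sprr1a ranged from 100.4 to 1443 CPM in the high group (median 286 CPM) and from 0 to 9.79 CPM in the low group, of which 142 cells held no Sprr1a UMI. The cells closest to the limits held 99.97 CPM (37 UMIs, intermediate) and 100.4 CPM (60 UMIs, high), and 9.79 CPM (4 UMIs, low) and 10.1 CPM (5 UMIs, intermediate). A cell with under 100000 UMIs reaches 10 CPM with 1 Sprr1a UMI, and 93 high and 73 low cells were that shallow. Median depth was 230464 UMIs in high, 245294 in intermediate and 256361 in low cells. No cell name was shared between libraries and no 2 cells held identical counts. Across the DRG samples, the log2 ratio of the median UMIs of high to low cells averaged -0.19 ± 0.96 (SD, n = 14), with high cells deeper in 4 of 14 samples (exact two-sided paired permutation test, p = 0.495). Sample 8 at 7 days stood apart, with a log2 ratio of 2.64; without it the mean ratio was -0.41 (exact permutation p = 0.0124).

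High neurons were found in every labelled sample, sham included. In sham, 78 of 215 neurons (36.3%) were high, with 22.9% to 79.2% in single samples. After SNC the shares were 103 of 238 (43.3%) at 1 day, 43.0% of 237 at 3 days and 130 of 240 (54.2%) at 7 days. The range within sham thus covers the pooled share of each SNC group, and since these shares come from the measure that chose the cells they are given without a test. In sample 19-1, with 20 directly and 4 indirectly injured cells by its label, 5 of 24 cells were high, and in sample 19-2, with 4 directly and 20 indirectly injured cells, 14 of 24 were. The paper assigns its dyes to crushed and uncrushed branches in opposite ways in its Results and Methods. Which of these samples was rich in crushed neurons is therefore not certain. The sham label does not separate neurons with and without this RNA: labelled sham samples held it, whereas in the added libraries none of 503 neurons was high, which allows a share of up to 0.596% (counting error only), and 502 of them held no Sprr1a UMI.

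**Figure D1:**
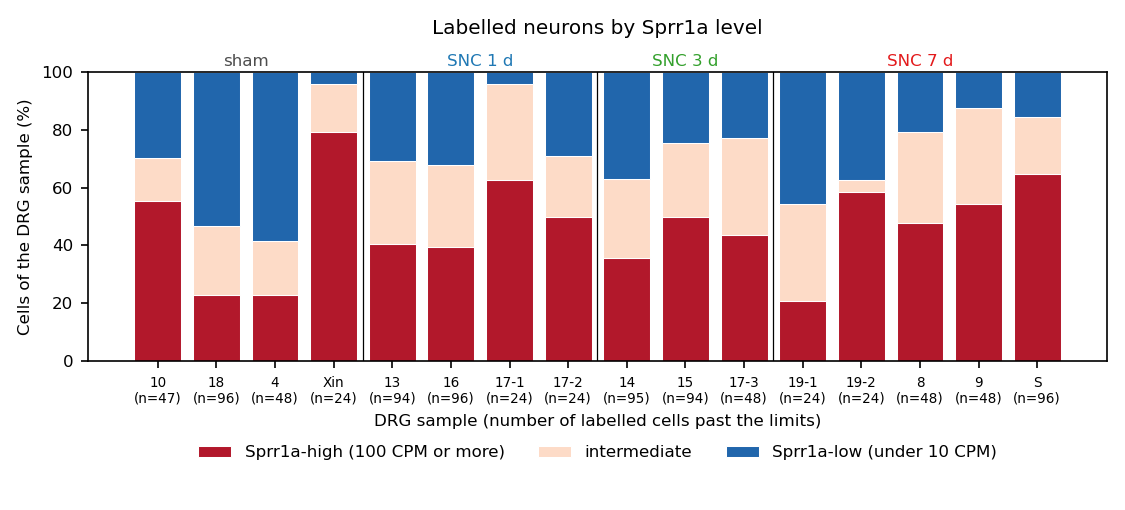
Share of labelled cells (y axis, percent) that were Sprr1a-high (red), intermediate (pale) or Sprr1a-low (blue) in each of the 16 DRG samples (x axis, with the number of cells), ordered by sham and days after SNC. Every sample holds both high and low cells, and the sham samples span 22.9% to 79.2% high.

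For the comparison, the counts of high cells and of low cells were summed in each DRG sample with at least 3 cells of both kinds. This left 14 pairs: sham samples 10, 18 and 4, samples 13, 16 and 17-2 at 1 day, samples 14, 15 and 17-3 at 3 days, and samples 19-1, 19-2, 8, 9 and S at 7 days. Samples Xin (sham) and 17-1 (1 day) held 1 low cell each and gave no pair. Unless stated otherwise, levels are CPM of these sums after TMM scaling, and log2 differences are high minus low from edgeR's quasi-likelihood test with the DRG sample as a block, with standard errors and Benjamini-Hochberg adjusted p over all 11792 genes tested.

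Sprr1a-high and Sprr1a-low neurons of the same DRG samples differed across a large part of the transcriptome. Of 11792 genes tested, 2379 were higher in high neurons (20.2%) and 2209 were lower (18.7%), with a median log2 difference of 0.014 over all genes. The same direction held in all 14 pairs for 681 of the higher and 538 of the lower genes. Differences above 2 on the log2 scale were found for 185 higher and 132 lower genes. For 212 genes (1.80%) the 14 high sums and the 14 low sums did not overlap at all, with the high sums above in 156 and the low sums above in 56. In the SNC samples alone (11 pairs), 1967 of 11658 genes were higher (16.9%) and 1845 lower (15.8%), and in the 3 sham pairs alone 360 of 11960 were higher (3.01%) and 306 lower (2.56%). Reverse transcription had been done in 2 years by the study's sample table: the 5 pairs of the earlier year, which are sham or 7 days, gave 690 higher and 626 lower genes, and the 9 pairs of the later year 1915 and 1915.

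Transcription factors of the regeneration response were higher for 8 of 19 tested and lower for 2, with a list median log2 difference of 0.28. Over all genes 20.2% were higher and 18.7% lower, and the counts of this and the following lists are to be read beside these shares. Atf3, the stress-induced factor that marks axotomised neurons, ranged from 620 to 1097 CPM in high sums (median 739) and from 147 to 319 CPM in low sums (median 221). All high sums lay above all low sums, and the log2 difference was 1.72 ± 0.10 (SE, 14 pairs, adjusted p = 2.35e-10). Jun, the AP-1 subunit needed for efficient regeneration, ranged from 335 to 645 CPM in high sums and from 172 to 381 CPM in low sums. Its groups overlapped, but the high sum was higher in all 14 pairs (0.87 ± 0.08, adjusted p = 6.62e-08). Sox11, a growth-promoting factor, was far less abundant, with a median of 20.5 CPM in high and 4.35 CPM in low sums (log2 difference 2.11 ± 0.30, adjusted p = 1.66e-05). Myc did not overlap between the groups (97.7 to 177 CPM against 44.5 to 94.8 CPM, log2 difference 1.01 ± 0.11). Csrnp1, a nuclear protein, was higher by 1.84 ± 0.31 on the log2 scale. The lower members, named after their values were seen because they are few, were the immediate early genes Fos (-0.64) and Junb (-0.70). Members of the AP-1 family were thus split in direction, with Jun higher and Fos and Junb lower.

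Genes of axon growth and the cytoskeleton were higher for 22 of 29 and lower for 1, with a list median of 0.55. Flrt3, an adhesion molecule that is induced in injured sensory neurons, ranged from 271 to 469 CPM in high sums (median 349) and from 61.7 to 136 CPM in low sums (median 107), without overlap (log2 difference 1.76 ± 0.07, adjusted p = 2.01e-11). Stmn4, a stathmin that acts on microtubules, ranged from 292 to 748 CPM in high and from 88.3 to 196 CPM in low sums, also without overlap (1.71 ± 0.09). Myo10, the filopodial motor, was higher by 2.26 ± 0.20 on the log2 scale. Ecel1, the peptidase DINE of injured neurons, had a median of 147 CPM in high and 46.4 CPM in low sums (1.57 ± 0.20). Gap43, the growth cone protein, was abundant in both groups, at 1285 to 2678 CPM in high and 748 to 1612 CPM in low sums. It was higher in 13 of 14 pairs, by only 0.69 ± 0.10 on the log2 scale (adjusted p = 1.35e-05).

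The exception in that list was Nrn1, which encodes neuritin, a membrane-anchored protein that promotes neurite growth. Low sums held 307 to 517 CPM of Nrn1 (median 398) and high sums 43.3 to 243 CPM (median 96.7). The groups did not overlap and the log2 difference was -1.97 ± 0.17 (adjusted p = 3.64e-08). It was lower in all 14 pairs.

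**Figure D2:**
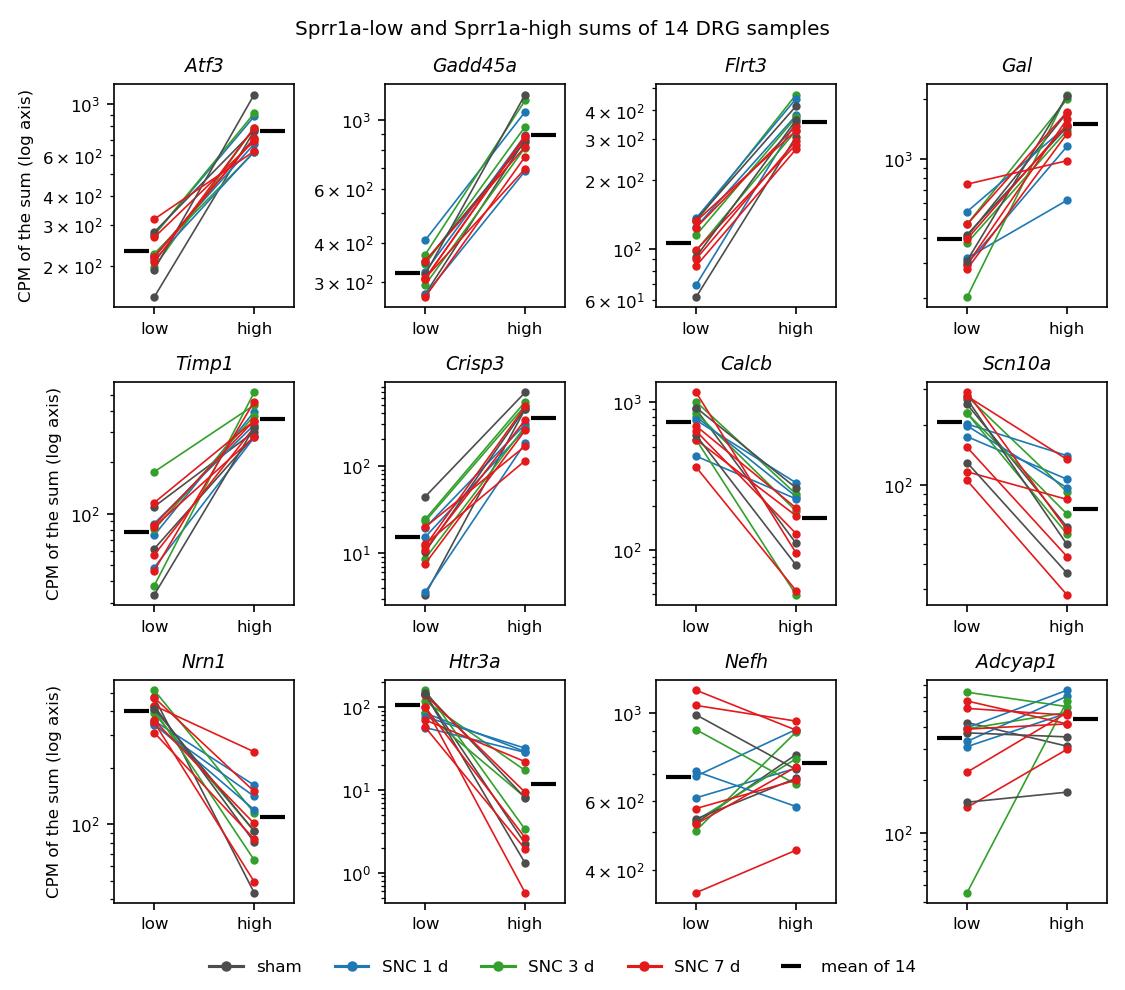
Levels (y axis, CPM of the sum after TMM scaling, log axis) of 12 genes in the Sprr1a-low and Sprr1a-high sums (x axis) of 14 DRG samples. Each line joins the sums of 1 DRG sample, colours give sham and days after SNC, and black bars give the means; lines rise in all 14 pairs for Atf3, Gadd45a, Flrt3, Gal, Timp1 and Crisp3, fall in all 14 for Calcb, Scn10a, Nrn1 and Htr3a, and run both ways for Nefh and Adcyap1.

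Genes of the integrated stress and p53 response were higher for 8 of 15 and lower for 1 (list median 0.53). Gadd45a, a growth arrest gene induced by DNA damage and by axotomy, ranged from 683 to 1203 CPM in high and from 268 to 409 CPM in low sums. The groups were fully apart, and with a log2 difference of 1.47 ± 0.06 Gadd45a had the smallest adjusted p of the genes named here (5.74e-12). Cdkn1a, the p53 target p21, had a median of 169 CPM in high and 29.9 CPM in low sums (2.21 ± 0.13, adjusted p = 2.93e-10). Trib3, a pseudokinase downstream of Atf4, was higher by 1.07 ± 0.16 on the log2 scale. The single lower member was Ddit3, which encodes the stress factor CHOP (-0.53).

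Secreted signals had the highest list median, with 6 of 9 cytokine and growth signal genes higher, 1 lower and a list median log2 difference of 1.52 beside 0.014 over all genes. Il24, a cytokine of the interleukin 10 family, ranged from 5.08 to 173 CPM in high sums (median 121) and from 0.553 to 17.7 CPM in low sums (median 4.20). One high sum fell within the range of the low sums, and Il24 was higher in all 14 pairs (log2 difference 4.41 ± 0.27, adjusted p = 6.93e-10). Csf1, the macrophage and microglia growth factor that injured sensory neurons release, had a median of 76.1 CPM in high and 10.9 CPM in low sums (2.67 ± 0.18). Timp1, an inhibitor of metalloproteinases, ranged from 280 to 514 CPM in high and from 33.3 to 176 CPM in low sums, without overlap (2.26 ± 0.17). Bdnf, the neurotrophin, was the lower member (-0.73).

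The genes that share the skin's cornified envelope with Sprr1a were mostly too rare to test. On the list of Sprr genes, transglutaminases and keratins, 5 of the 12 passed the filter on low counts. Of these, 2 were higher, none was lower and 3 were not called, with a list median log2 difference of -0.14. Tgm1, the transglutaminase that cross-links the envelope, ranged from 61.3 to 179 CPM in high sums (median 103) and from 3.32 to 25.4 CPM in low sums (median 9.41). No high sum overlapped a low sum, and the log2 difference was 3.38 ± 0.18 (adjusted p = 9.22e-11). Krt8, a simple-epithelial keratin, was higher by 1.86 ± 0.68 but in only 9 of 14 pairs (adjusted p = 0.0389). Its call was lost with DESeq2 (1.48, adjusted p = 0.0724), in the SNC samples alone (1.72, adjusted p = 0.0683), without cell clusters 2, 6 and 7, which held most of the low neurons (1.19, adjusted p = 0.265), and in limma on log values of cells (0.07, adjusted p = 0.776). Outside the list, Lce1f, a late cornified envelope gene, had a median of 21.5 CPM in high and 0.464 CPM in low sums (4.84 ± 0.52), and the keratin-associated gene Krtap2-1 had a median of 35.8 against 1.65 CPM (3.87 ± 0.27).

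Neuropeptide genes were split in direction, with 5 of 15 higher and 6 lower. Gal, which encodes galanin, ranged from 619 to 2112 CPM in high sums (median 1480) and from 201 to 746 CPM in low sums (median 386). A high sum fell into the range of the low sums, although Gal was higher in all 14 pairs (log2 difference 1.95 ± 0.17, adjusted p = 6.21e-08). Cck and Ucn, which encode cholecystokinin and urocortin, were higher by 4.18 ± 0.43 and 2.96 ± 0.41 on the log2 scale, from low medians of 1.40 and 9.54 CPM. Cck was higher in all 14 pairs, but its high sums ranged from 0.204 to 113 CPM. Ucn was reversed in sample 8, with 17.0 CPM in the high and 36.1 CPM in the low sum. The remaining higher members were Vip (2.74) and Pdyn (2.28). Npy, another peptide of injured neurons, held 1 UMI in all sums together and was not tested, and Adcyap1, which encodes PACAP, did not pass the test (170 to 654 CPM against 45.2 to 636 CPM, log2 difference 0.46 ± 0.23, adjusted p = 0.119).

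The classical transmitters of pain fibres were lower. Calca and Calcb encode the peptides alpha-CGRP and beta-CGRP. Calcb ranged from 49.6 to 285 CPM in high sums and from 364 to 1169 CPM in low sums, without overlap (log2 difference -2.25 ± 0.19, adjusted p = 2.83e-08). Calca, at medians of 790 CPM in high and 1909 CPM in low sums, overlapped between the groups and was lower in 13 of 14 pairs (-1.25 ± 0.23, adjusted p = 2.58e-04). Tac1, the substance P gene, had medians of 527 and 1204 CPM (-0.90 ± 0.18, adjusted p = 6.13e-04). Sst and Nppb, peptides of itch-type neurons, were lower by more still, at -3.28 ± 0.31 and -3.04 ± 0.46 on the log2 scale. As shown further on, the calls of Tac1, Calca, Sst and Nppb depend on which clusters of cells enter, while that of Calcb was also made in clusters 3 and 4 and without clusters 2, 6 and 7.

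Sensory ion channels were lower for 11 of 22 tested and higher for 3 (Scn3a, Asic3 and Cacna2d1, named after their values were seen), with a list median of -0.53. Scn10a, the nociceptor sodium channel Nav1.8, ranged from 27.9 to 140 CPM in high sums (median 66.2) and from 105 to 290 CPM in low sums (median 215). It was lower in all 14 pairs by 1.52 on the log2 scale (SE 0.15, adjusted p = 3.31e-07), although the groups overlapped. Scn11a (Nav1.9) was lower by 2.21 ± 0.22, with medians of 37.8 and 202 CPM. Trpv1, the capsaicin receptor, had medians of 21.3 CPM in high and 103 CPM in low sums (-2.10 ± 0.20, adjusted p = 1.54e-07), and Trpa1 and Kcnk18 were lower by 1.86 ± 0.21 and 2.96 ± 0.45. The higher member Scn3a, an embryonic sodium channel, stood at 1.83. The count of lower genes on this list was smaller in other choices of cells. Without clusters 2, 6 and 7, 6 of 21 were lower and 3 higher. Over all genes in that choice of cells, 1215 of 10997 were lower and 1426 higher (13.0%). In clusters 3 and 4 alone none of 20 was lower and 2 were higher, beside 1.77% lower and 3.45% higher over all genes. With the cluster as a stratum none of 19 was called, beside 0.419% lower and 1.29% higher over all genes. At such shares, none lower among 20 or 19 genes is not a result about the list. Kcnk18 stood at -0.74 without clusters 2, 6 and 7 (adjusted p = 0.381).

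Cytokine and neurotrophin receptors showed no shift as a list (2 of 13 higher, 4 lower, median 0.02). Osmr, the oncostatin M receptor, was lower in all 14 pairs (median 13.7 against 73.8 CPM, log2 difference -2.58 ± 0.19). Npy1r, a receptor for neuropeptide Y, was lower by 1.21 ± 0.17, whereas Gfra3, the artemin receptor, was higher by 0.53 ± 0.14. Ngfr, the p75 neurotrophin receptor, was lower by 0.42 ± 0.07.

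Antioxidant and polyamine genes were called in both directions (3 of 12 higher, 4 lower, median -0.02), beside 20.2% higher and 18.7% lower over all genes. Counts this small are not read as a result about the list. Arg1, which encodes arginase 1, ranged from 81.3 to 413 CPM in high and from 11.6 to 40.7 CPM in low sums, without overlap (log2 difference 2.50 ± 0.20, adjusted p = 2.03e-08). Hmox1, heme oxygenase, differed by 0.53 ± 0.09. Mt3, a brain-type metallothionein, was lower in all 14 pairs, with medians of 207 CPM in high and 682 CPM in low sums (-1.50 ± 0.18). Gpx3, a secreted glutathione peroxidase, was lower by 1.11 ± 0.19.

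Outside these lists, several genes differed by large amounts with 1 direction in all 14 pairs. Crisp3, a cysteine-rich secretory protein, ranged from 114 to 689 CPM in high sums (median 315) and from 3.32 to 44.2 CPM in low sums (median 12.3). This is a separation without overlap, by 4.59 ± 0.21 on the log2 scale (adjusted p = 4.80e-11). Smaller levels but like separations were seen for AABR07069821.1, a gene known only by its clone name (median 33.1 against 0.674 CPM, 5.29 ± 0.25), and for Cyp2s1, a cytochrome P450 (21.5 against 0.787 CPM, 4.11 ± 0.27). The UDP receptor P2ry6 and the protease inhibitor Serpinb6b had high medians near 10 CPM (log2 differences of 4.25 ± 0.40 and 4.20 ± 0.37). Hpd, an enzyme of tyrosine breakdown, had medians of 31.5 and 1.17 CPM (4.12 ± 0.32). The vasopressin gene Avp and the metalloproteinase Mmp12 were higher by 3.98 ± 0.37 and 3.93 ± 0.34, from low medians of 0.437 and 0.453 CPM.

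Other genes were lower by comparable amounts. Htr3a, a subunit of the serotonin-gated channel, ranged from 56.2 to 158 CPM in low sums (median 99.6) and from 0.574 to 31.7 CPM in high sums (median 8.04), without overlap (log2 difference -3.55 ± 0.46, adjusted p = 5.61e-06). Its partner subunit Htr3b had medians of 17.8 CPM in low and 0.747 CPM in high sums, also without overlap (-4.26 ± 0.38). Chrnb3, a nicotinic receptor subunit, and Tmem233, a membrane protein, were lower by 3.86 ± 0.42 and 3.72 ± 0.36 and did not overlap either. Pdlim3, Slc51a, Il7r, Ednra, Cst12 and Ly86 completed the lower end, at log2 differences from -4.57 to -3.48. Without clusters 2, 6 and 7, which held most of the low cells, Chrnb3 and these 6 genes were too rare to pass the filter on low counts, as they were in clusters 3 and 4 alone, and Tmem233 was not called (-1.48, adjusted p = 0.101). Htr3a and Htr3b stayed lower in both (-4.68 for Htr3b without clusters 2, 6 and 7, adjusted p = 7.87e-07).

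The study gives a list of genes that are both in its Cyan co-expression module and among its markers of peptidergic clusters. All 20 of these genes that were tested were higher (none lower, median 1.43). The study chose that list on these same neurons, by module and by cluster marker, and it contained Sprr1a, so the count is not independent evidence of a direction. Its members with the largest differences besides Tgm1 were Cnga4, Prrg4 and Thbd. Cnga4, a subunit of the olfactory cyclic nucleotide-gated channel, ranged from 42.8 to 168 CPM in high and from 3.01 to 24.4 CPM in low sums (log2 difference 3.57 ± 0.16). Thbd, the anticoagulant receptor thrombomodulin, ranged from 87.1 to 259 CPM against 7.74 to 29.6 CPM (3.17 ± 0.16), and Prrg4 from 38.5 to 151 CPM against 2.75 to 18.8 CPM (3.40 ± 0.16). All 3 were without overlap.

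**Figure D3:**
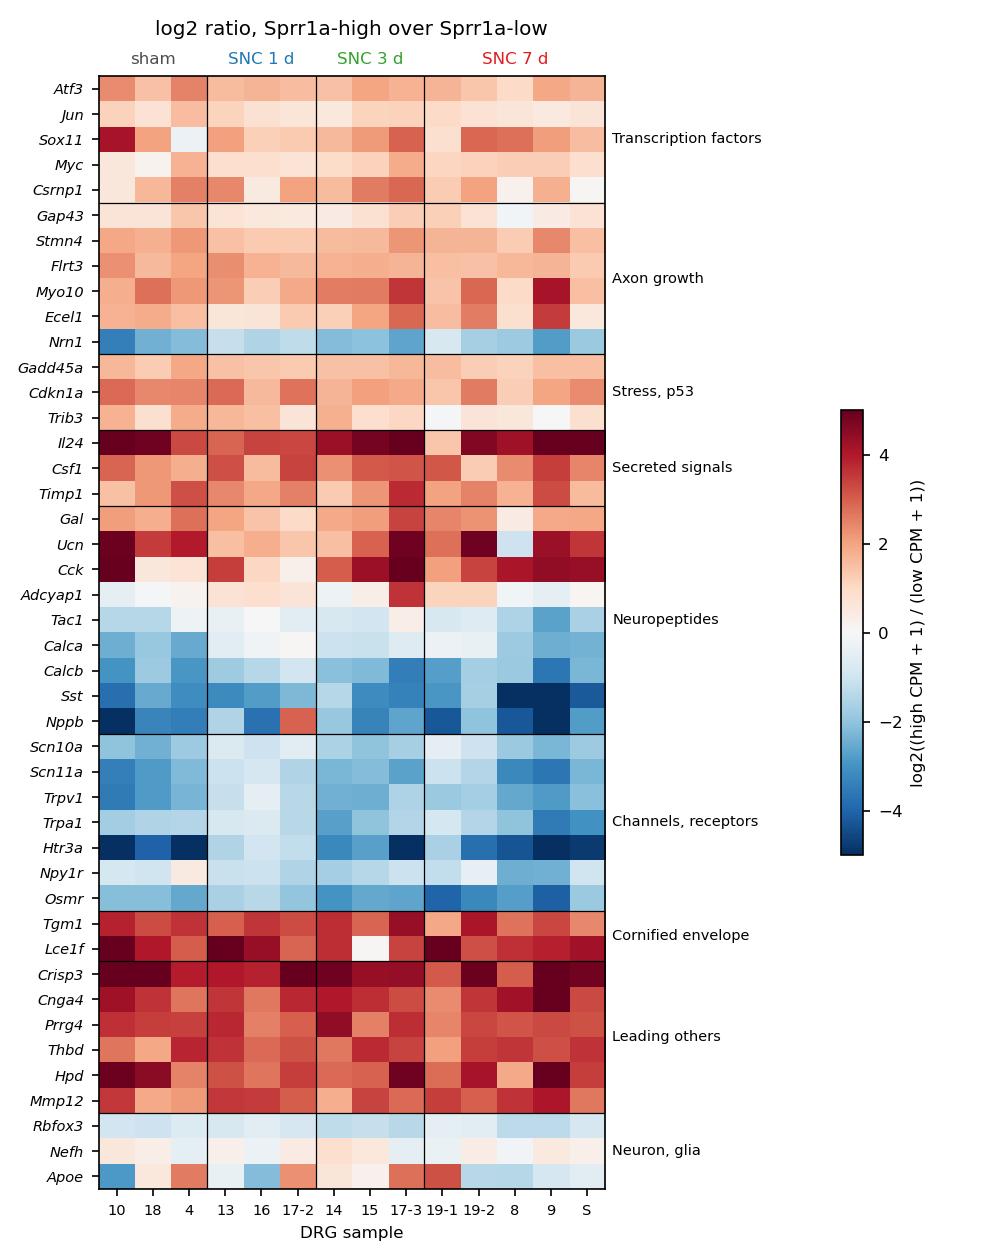
log2 ratio of Sprr1a-high to Sprr1a-low CPM (colour, with 1 CPM added to both, red for higher in high neurons, cut at 5 and -5) for named genes (rows, grouped by role) in the 14 DRG samples (columns, grouped by sham and days after SNC). Atf3, Flrt3, Gadd45a, Tgm1 and Crisp3 are red in every column, Calcb, Nrn1 and Htr3a are blue in every column, and Apoe and Nefh change colour between columns.

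Since Jun and Atf3 are partners in AP-1 dimers, the sequence before the start of the genes with large differences was searched for the AP-1 motif TGANTCA with C or G in the middle (TGACTCA or TGAGTCA, which are the reverse complement of each other, so both strands are covered). RefSeq windows from 250 bases before to 50 after the start were used (rat build GRCr8). The motif was in 1550 of 33469 windows (4.63%) and in 323 of the 8831 tested genes that have a window (3.66%). Among genes higher by more than 2 on the log2 scale, 127 of 185 had a window and 18 of these held the motif (14.2%). Among genes lower by more than 2, it was 5 of 98 (5.10%), with 132 genes in all. Over all called genes the shares were closer to that background, at 91 of 1794 windows of higher genes (5.07%) and 64 of 1698 of lower genes (3.77%). The cAMP response element TGACGTCA, which does not overlap with this motif, was in 8 of the 127, 3 of the 98 and 297 of the 8831 windows. These are counts of letters, not of bound sites. Shown are the 250 bases before the start of Sprr1a, which chose the cells and holds the motif at 147 and 117 bases before the start, and of Hpd and Mmp12, genes described above that hold it (135 and 87 bases before the start). Capitals mark the motif, and each sequence is written 5′ to 3′ on the strand of the gene.
Sprr1a, chr2:180752626-180752875, minus strand: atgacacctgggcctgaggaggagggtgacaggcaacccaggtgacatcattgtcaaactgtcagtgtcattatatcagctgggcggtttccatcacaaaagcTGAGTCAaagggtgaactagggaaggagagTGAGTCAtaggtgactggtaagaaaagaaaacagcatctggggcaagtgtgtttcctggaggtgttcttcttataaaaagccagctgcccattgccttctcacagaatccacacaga
Hpd, chr12:39041996-39042245, plus strand: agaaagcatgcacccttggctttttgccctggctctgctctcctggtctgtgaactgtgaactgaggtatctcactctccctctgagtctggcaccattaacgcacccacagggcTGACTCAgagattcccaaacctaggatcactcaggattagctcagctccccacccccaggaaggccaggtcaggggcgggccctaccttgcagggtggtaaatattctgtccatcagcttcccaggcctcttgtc
Mmp12, chr8:12866402-12866651, plus strand: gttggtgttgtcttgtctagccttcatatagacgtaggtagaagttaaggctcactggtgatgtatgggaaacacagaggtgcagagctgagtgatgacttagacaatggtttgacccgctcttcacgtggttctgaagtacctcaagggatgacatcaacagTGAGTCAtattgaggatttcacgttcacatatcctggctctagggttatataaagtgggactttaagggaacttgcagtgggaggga

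Markers of neuron types and of other cells were then compared. Nefh, the heavy neurofilament of large neurons, had medians of 728 CPM in high and 591 CPM in low sums and did not pass the test (log2 difference 0.17 ± 0.10, adjusted p = 0.210), and none of 7 large-fibre markers was called. Cd9, a tetraspanin, ranged from 44.5 to 335 CPM in high and from 6.81 to 529 CPM in low sums and was not called either (-0.46 ± 0.36, adjusted p = 0.335), though it was lower after thinning each cell to 20000 UMIs (-1.02, adjusted p = 5.93e-04). Of 7 nonpeptidergic and itch-type markers, 5 were lower and none higher (median -3.04): Mrgprb4 (-5.13 ± 0.44), Il31ra (-3.46 ± 0.22), Sst, Nppb and Osmr. Of 11 peptidergic markers, 3 were higher and 6 lower (median -0.90). Cck and Arg1, given above, were among the higher members, and Calcb was among the lower. Kcng1, a potassium channel subunit that marks 1 cluster, was lower by 4.24 ± 0.67, in 11 of 14 pairs. No C-LTMR or cold marker of 3 tested was called. Rbfox3, the neuronal nuclear protein NeuN, was itself lower, at 126 to 214 CPM in high and 221 to 445 CPM in low sums without overlap (-0.95 ± 0.08, adjusted p = 2.03e-08). Tubb3 was higher by 0.41 ± 0.08 and Snap25 lower by 0.24 ± 0.07, and all 5 pan-neuronal genes summed to 6321 to 8682 CPM in high and 5600 to 8105 CPM in low sums.

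Glial RNA was present in the sums of both groups. The 8 satellite glia and Schwann cell markers summed to 332 to 1364 CPM in high (median 627) and 243 to 1162 CPM in low sums (median 666), and the log2 ratio of the median glial CPM of the cells averaged 0.14 ± 0.83 (SD, n = 14; exact two-sided paired permutation p = 0.525). Of 7 tested, Mbp, a myelin gene, was higher (0.65 ± 0.15) and Apoe was not called (17.9 to 400 CPM against 15.3 to 242 CPM, log2 difference 0.13 ± 0.47). Immune markers summed to 7.85 to 48.1 CPM in high and 2.71 to 110 CPM in low sums, with none of 3 called, and the 3 endothelial and fibroblast markers to at most 14.1 CPM, with no UMI of the endothelial gene Cldn5 in either group. These sums are CPM without TMM scaling, and the part of glial RNA in single differences was not tested. Without the cells richest in glial RNA, 2261 genes were higher and 2292 lower.

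The neurons of both groups were spread unevenly over the 10 clusters made without Sprr1a. Clusters 0 and 1 held 267 of the 413 high cells (64.6%) and 23 of the 282 low cells, whereas clusters 2, 6 and 7 held 9 high cells and 173 low cells (61.3%). Clusters 3 and 4 held 65 high and 51 low cells, and clusters 5, 8 and 9 held 72 and 35. Cluster 2 had the highest mean CPM of Kcng1 (232, against 5.01 elsewhere), cluster 6 of Mrgprb4 (80.0, against 1.48) and cluster 7 of Sst (1480, against 31.5), while clusters 3 and 4 had the highest Nefh (1440 and 1286 CPM). Clusters 0 and 1 had the highest Gal (2347 and 2319 CPM, against 1181 and 1194 elsewhere) and Atf3 (845 and 897 CPM, against 569 and 557). The clusters thus differed in genes of the injury response as well as in markers of neuron type. A choice of clusters therefore also restricts the levels of such genes. The clusters were built from genes that differ between the groups, so the counts of cells are a description and were not tested. They show that the main comparison sets cells of largely different clusters against each other.

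To see which differences remain between high and low neurons of more like clusters, the cells were restricted in 3 ways, the first 2 of which were chosen after seeing the data. Without clusters 2, 6 and 7 (13 pairs), 1426 genes of 10997 were higher (13.0%) and 1215 lower (24.0% in either direction). In clusters 3 and 4 alone, which have like numbers of high and low cells but leave 6 pairs of 3 to 10 cells a sum, 355 of 10303 were higher (3.45%) and 182 lower (1.77%). With the cluster as a stratum, 9 pairs of 7 DRG samples gave 111 of 8585 higher (1.29%) and 36 lower (0.419%). Each of these 9 pairs is a cluster within a DRG sample, so some samples enter more than once. Such pairs are not independent, and their p-values do not measure the spread between samples alone. Fewer cells, pairs and tested genes enter each restriction, and how far the smaller counts come from that and how far from the clusters was not tested.

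Of 64 named genes that could be tested in clusters 3 and 4, 37 kept both their direction and their side of the threshold, 19 kept the direction without the call, 2 gained a call and 6 changed sign. There, Atf3 ranged from 564 to 782 CPM in high and from 73.2 to 321 CPM in low sums, without overlap (log2 difference 1.65, adjusted p = 0.00377 by edgeR; levels in this paragraph are not TMM-scaled). Tgm1 ranged from 63.9 to 191 CPM against 4.16 to 12.7 CPM (3.41), Il24 from 56.1 to 344 CPM against 3.10 to 23.0 CPM (3.90) and Arg1 from 93.2 to 272 CPM against 7.85 to 22.7 CPM (3.22). All 3 were apart without overlap, while Crisp3, at 28.5 to 172 CPM against 3.10 to 19.0 CPM, had a smaller log2 difference (2.71) than in all clusters. Jun (0.92), Sox11 (2.34), Csf1 (2.83), Timp1 (2.44), Flrt3 (1.99), Gadd45a (1.03) and Gal (1.30) were also higher there. On the lower side, Nrn1 (-2.01), Htr3a (-3.24), Htr3b (-4.50), Calcb (-1.50), Mt3 (-1.30) and Rbfox3 (-1.04) kept their calls. With the cluster as a stratum, the planned restriction, 49 named genes were tested. Of these, 24 kept direction and side of the threshold, 21 kept the direction without the call and 4 changed sign. Atf3 (1.33), Crisp3 (2.36), Il24 (3.14), Arg1 (2.22), Csf1 (2.29), Flrt3 (1.49), Gadd45a (0.84), Calcb (-1.45) and Htr3a (-2.14) were among those called. Jun (0.46, adjusted p = 0.338) and Gal (0.75, adjusted p = 0.317) were not, by edgeR.

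The calls of Tac1, Trpv1, Sst and Nppb as lower were lost in these cells. In clusters 3 and 4 the log2 difference was 0.09 for Tac1 (adjusted p = 0.864), 0.21 for Trpv1 (0.872), 0.50 for Sst (0.530) and 0.59 for Nppb (0.497), all from edgeR, and Npy1r turned to higher (1.40, adjusted p = 0.0191). Median levels there, not TMM-scaled, in high and low sums were 8.49 and 8.15 CPM for Trpv1, 9.62 and 7.35 for Nppb, and 31.1 and 19.5 for Sst. For Tac1 they were 321 and 263.5 CPM, and for Npy1r 41.85 and 10 CPM. From the low levels of Trpv1, Nppb and Sst a fall in high neurons could hardly be seen. Their lost calls thus do not show that like neurons do not differ. Calca was at -0.84 (adjusted p = 0.0548), Scn10a at -1.02 (0.105), Gap43 at 0.41 (0.243), Stmn4 at 0.96 (0.112) and Cdkn1a at 1.46 (0.0554), all in the direction of the main comparison without passing the test. Without clusters 2, 6 and 7, too, Tac1 (0.11), Sst (0.43) and Trpa1 (0.24) lay on the other side of 0 and were not called, and of the nonpeptidergic and itch-type markers 1 of 6 was higher and none lower. Over all genes in that choice of cells, 13.0% were higher and 1215 of 10997 were lower. Adcyap1 moved the opposite way: it was not called among all cells, but in clusters 3 and 4 it ranged from 520 to 700 CPM in high and from 13.7 to 574 CPM in low sums, higher in 6 of 6 pairs (log2 difference 2.00, adjusted p = 0.0446), and without clusters 2, 6 and 7 it was higher by 0.91 (adjusted p = 0.0463). With the cluster as a stratum Adcyap1 was not called (1.44, adjusted p = 0.110 by edgeR). Apoe was also called in clusters 3 and 4 (1.19, adjusted p = 0.0494 by edgeR), as 1 of 5 glial markers tested there, and Mbp was not (0.84, adjusted p = 0.117). The part of glial RNA in the other differences there was not tested.

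**Figure D4:**
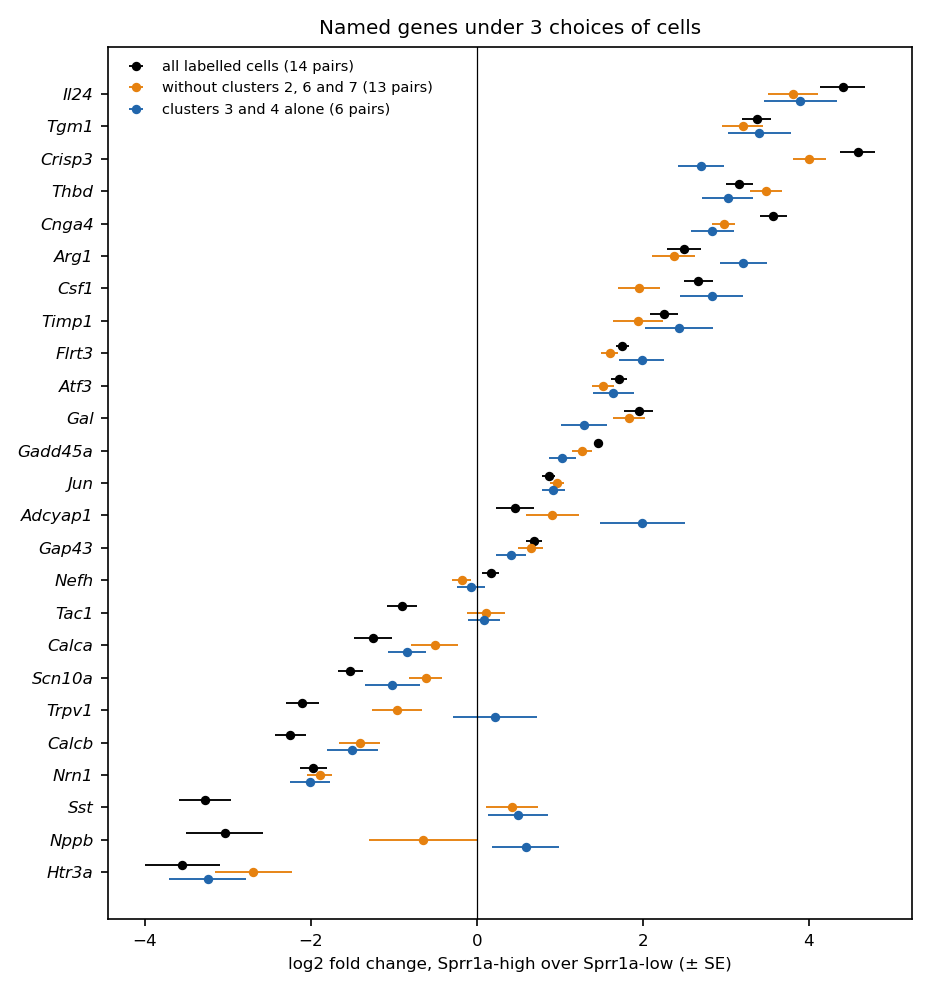
log2 difference between Sprr1a-high and Sprr1a-low sums (x axis, points with bars of ± SE) for 25 genes (y axis) among all labelled cells (black, 14 pairs), without clusters 2, 6 and 7 (orange, 13 pairs) and in clusters 3 and 4 alone (blue, 6 pairs). Il24, Tgm1, Atf3, Nrn1 and Htr3a keep their place, while Tac1, Trpv1, Sst and Nppb move from below 0 to 0 or above in clusters 3 and 4, and Adcyap1 moves up.

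Whether the difference between high and low neurons depended on the crush was asked by comparing it between SNC and sham. No gene of 11792 passed (edgeR's interaction test, with 485 genes under an unadjusted p of 0.05; DESeq2 also called 0, with 608 under it). The 3 sham samples and the 11 SNC samples share no sample, so their comparisons can be set side by side. Of 11492 genes tested in both, 647 were called in sham and 3773 after SNC. In all, 621 genes were called in both and with the same direction, 96.0% of the sham calls and 16.5% of the SNC calls, and none with the opposite direction. Over all genes tested in both, 76.5% had the same sign. The number of pairs differs between these comparisons, so the numbers of calls cannot be compared as effects.

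In single genes, the high sums of the sham samples held 764, 770 and 1097 CPM of Atf3 and the low sums 147, 193 and 280 CPM. They did not overlap, and the log2 difference was 2.11 ± 0.24 in sham and 1.61 ± 0.08 after SNC. Gal stood at 1449, 1711 and 2079 CPM in the sham high sums against 307, 406 and 415 CPM in the sham low sums (2.20 ± 0.24 in sham, 1.88 ± 0.20 after SNC). Crisp3 stood at 444, 450 and 689 CPM against 3.32, 10.3 and 44.2 CPM (5.16 ± 0.51 in sham, 4.43 ± 0.19 after SNC). Htr3a stood at 1.31, 2.25 and 7.98 CPM in the sham high sums against 141, 143 and 148 CPM (-5.18 ± 0.42 in sham, -3.17 ± 0.49 after SNC). Among these genes the difference between SNC and sham was not called (adjusted p = 0.980 by edgeR's interaction test for each of the 4).

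**Figure D5:**
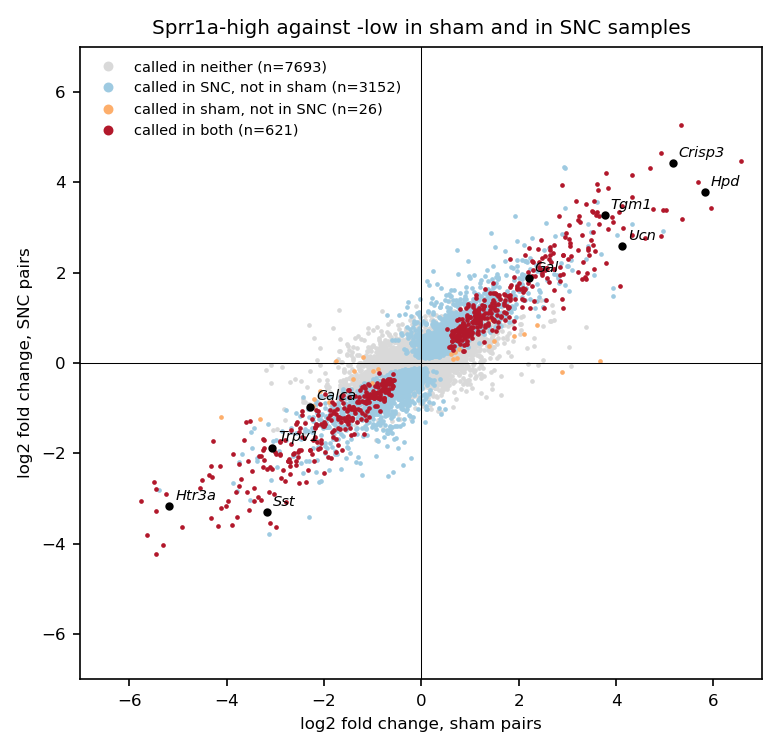
log2 difference between Sprr1a-high and Sprr1a-low sums in 3 sham pairs (x axis) against 11 SNC pairs (y axis), 1 point per gene tested in both (n = 11492), coloured by where the gene was called. All 621 genes called in both lie in the quadrants of equal sign, and some named genes are marked in black.

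By day after SNC, the log2 difference of Atf3 was 1.62 at 1 day, 1.72 at 3 days and 1.53 at 7 days, and that of Il24 was 3.31, 5.03 and 4.99. For Trpv1 it was -1.01, -2.20 and -2.26, and for Htr3a -1.26, -3.66 and -4.40. In a test of the difference across the 3 days, edgeR called none of these 4 genes. It called 1 gene of 11658 (425 with an unadjusted p under 0.05), S100a16, which encodes a calcium-binding protein. S100a16 had log2 differences of -1.52 at 1 day, 1.22 at 3 days and 5.07 at 7 days, the latter led by sample 19-1 with 184 CPM in the high and 3.71 CPM in the low sum; without sample 19-1, no gene was called.

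When only high neurons were compared between SNC (12 samples) and sham (4 samples), edgeR called 0 of 12625 genes (1253 with an unadjusted p under 0.05), and DESeq2 called 1, the muscle LIM protein gene Csrp3 (-1.26). Among low neurons (11 against 3 samples) edgeR called 0 of 12469 genes (154 with an unadjusted p under 0.05), and DESeq2 called 1, Tsen34l1 (0.76). In high neurons, the log2 difference of SNC from sham was -0.36 ± 0.12 for Atf3 and 1.23 ± 0.38 for Calca, neither past the threshold (adjusted p = 0.464 for both). The year of reverse transcription was not balanced: all 1 day and 3 day samples were of the later year, and most sham samples of the earlier. With the year as a term, edgeR again called 0 genes in high and in low neurons (576 and 211 with an unadjusted p under 0.05). A p that misses the threshold does not show that the neurons were alike.

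Intermediate neurons (10 to under 100 CPM of Sprr1a) were also compared with low neurons. This comparison uses the same low sums as the main one, so values are set side by side and not correlated. Of 11390 genes, 951 were higher (8.35%) and 909 lower (7.98%). Atf3 differed by 1.19 between intermediate and low neurons and by 1.72 between high and low, Gal by 1.09 and 1.95, Crisp3 by 2.68 and 4.59, Tgm1 by 1.77 and 3.38, Nrn1 by -0.74 and -1.97, and Trpv1 by -1.03 and -2.10 on the log2 scale. Intermediate neurons thus lay between the other groups in these 6 genes. Other genes did not follow this order: Trib3 stood at 0.00 (adjusted p = 0.997) in intermediate and 1.07 in high neurons, and Nefh was higher in intermediate neurons (0.35, adjusted p = 0.0181) but not called in high neurons (0.17).

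The added sham libraries held no high neuron, so the planned comparison within them could not be made, and their levels are given only beside those of the low neurons (here as CPM without TMM scaling). Gal ranged from 1.71 to 22.2 CPM over the 7 added libraries and from 203 to 688 CPM in labelled low sums, and Crisp3 from 0 to 0.0756 CPM against 3.24 to 45.6 CPM. Atf3 ranged from 76.2 to 199 CPM against 144 to 294 CPM. Gal and Crisp3 thus did not overlap between low labelled neurons and added libraries, and Atf3 did. These libraries differ from the labelled ones in more than Sprr1a, and were not tested against them.

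Finally, the genes whose CPM followed that of Sprr1a most closely from cell to cell were listed, by the mean over 16 DRG samples of Spearman's rank correlation within each sample (13009 genes found in at least 10% of cells, median -0.01). They were Kif22, a chromosome-binding kinesin (0.67), Cmtm3 (0.64), Stmn4 (0.64), Gadd45a (0.63), Crisp3 (0.63), Atf3 (0.63), Cnga4 (0.63), LOC102549726 (0.62), Tln1, which encodes the integrin-binding protein talin (0.62), and Cryba2, a crystallin gene (0.61). Of these, 9 were positive in 16 of 16 samples and Cnga4 in 15. The cells of a sample share a library, and the values within a cell share its depth, so these are descriptions.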

How the data were processed

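The RNA of single labelled DRG neurons and of neurons of 7 added sham libraries had been copied by a modified Smart-seq2 method with unique molecular identifiers (UMIs). The deposited counts are whole numbers of UMIs per gene and cell, not normalized. To make them, the authors divided reads by barcode, used STAR with the rat Rnor_6.0 transcriptome, then featureCounts and SAMtools to assign genes, and UMI-tools to merge reads of 1 molecule; the submitters' processing notes also list these tools. PCR duplicates are therefore counted once.

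A cell was kept if it had 500 or more genes, 1000 or more UMIs and less than 5% of UMIs in 13 mitochondrial genes (930 of 936 labelled and 503 of 528 added cells). No doublet caller was run, since neurons had been picked by hand. The groups, the genes and the gene lists were chosen with earlier results of these data known. Counts were summed per DRG sample and Sprr1a group and tested with edgeR 4.0.16 in R 4.3.3 (TMM, filterByExpr, quasi-likelihood, DRG sample as a block, adjusted p under 0.05). The pairing comes from the design: both sums are cells of 1 DRG sample. Their deviations from the group means over 11792 genes correlated with r from -0.01 to 0.58 (median 0.28), against a median of -0.01 between samples. The SE of a log2 difference was derived from the F statistic. Labelled cells were clustered with Seurat 5.3.0 (2000 variable genes without Sprr1a, 40 components, resolution 0.5). The paired test of high against low, its difference between SNC and sham, and SNC against sham among high neurons were also run on simulated data. There the changed genes were known. The other fits were not run on simulated data.

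For each list, up to 4 called genes with the largest differences and a mean of 10 CPM or more in 1 of the groups were to be named, with 15 genes named in any case and, outside the lists, up to 10 genes at either end with 1 direction in every pair. As alternatives, limma 3.58.1 on cells weighted alike, DESeq2 1.42.0 or its size factors, no filter, each sample left out, other Sprr1a limits, at least 5 cells a sum, thinning to 20000 UMIs (21 high and 15 low cells were too shallow), cells below the Nefh median, clusters as strata, merged samples, and cells without much glial RNA were tried. Added after seeing the data were sham, each day and each year of reverse transcription alone, cells at or above the Nefh median, clusters 3 and 4 alone and all but clusters 2, 6 and 7. CPM are shares of a sum, so a gene can be higher because others are lower.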

Additional observations from a re-analysis of the deposited data

Results flagged for a closer look

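Where a group had 4 or 5 DRG samples, 1 sample lay far from the others in 6 of 86 groups of values tested, where chance gives about 1 in 20. All ratios of high to low were tested in the 5 pairs at 7 days, since sham and the other days had 3 pairs each, and the rest were shares of high cells. For sample 19-1 the log2 ratio of high to low was 3.19 for Apoe (others -1.43 to -0.55), -1.29 for the oxidase gene Duox2 (3.09 to 3.64), 2.43 for Prrg4 (3.14 to 3.35) and 2.04 for Thbd (3.21 to 3.62). The high sum of sample 19-1 holds 5 cells. For sample 8 the log2 ratio was 0.39 for Gal (others 1.88 to 2.43) and -1.80 for the median CPM of glial markers (0.01 to 0.74), and the low cells of sample 8 had a median of 49008 UMIs against 305796 in its high cells. S100a16 was the gene whose difference between high and low neurons differed between days after SNC (adjusted p = 0.0189, edgeR).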

How the results depend on the processing

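The counts of genes higher and lower in Sprr1a-high neurons (2379 and 2209) stayed within 1.5 times under DESeq2, its size factors, no filter, the SNC samples alone, merged samples, a high limit of 200 CPM, cells below the Nefh median, reverse transcription in the later year and without glia-rich cells. Leaving out 1 pair gave 1990 to 2323 higher and 2005 to 2403 lower. Without the DRG sample as a replicate block, 1849 were higher and 1762 lower. The counts moved further with cells thinned to 20000 UMIs (979 and 944, with 6057 genes tested), low cells at 0 UMIs (1571 higher), limma (1494 higher), the cluster as a stratum (111 and 36), Nefh at or above its median (1076 and 908), clusters 3 and 4 alone (355 and 182), all but clusters 2, 6 and 7 (1426 and 1215), and in subsets of samples: sham (360 and 306), 1 day (730 and 362), 3 days (607 and 528), 7 days (721 and 600) and reverse transcription in the earlier year (690 and 626). Fewer genes, cells or pairs enter all of these but limma, for which the cause was not tested.

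The count of genes that differed between days (1) was 0 to 1 with a sample left out, 15 with DESeq2, 283 without a filter and 0 after thinning. Leaving out 1 of samples 16, 17-2, 19-1, 8 or 9 gave 0. For SNC against sham, the count (0) was 1 with DESeq2 and 2 without a filter, in high and in low neurons alike, and in low neurons 0 to 1 with a sample left out (1 without sham sample 18, the glutathione transferase gene Gsta4). With a sample left out, genes higher in intermediate neurons numbered 748 to 1010, the UMI ratio was -0.41 to -0.10 and the glial ratio 0.06 to 0.29.

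Of 81 named genes tested, those that changed sign did so as follows: with the cluster as a stratum Ecel1 (-0.019), Npy1r (0.15), Sst (0.86) and Tubb3 (-0.044); in clusters 3 and 4 Kcng1 (0.17), Nppb (0.59), Npy1r (1.40), Sst (0.50), Tac1 (0.085) and Trpv1 (0.21); without clusters 2, 6 and 7 Sst (0.43), Tac1 (0.11) and Trpa1 (0.24); with low cells at 0 UMIs Tubb3 (-0.11); after thinning Hmox1 (-0.017); and at 1 day alone Serpinf1 (0.35). The cause was not tested. The comparison within the added libraries could not be run, since they held no high neuron. Depth limits the rare genes: 11792 of 32883 genes could be tested, and a sum of 5 cells is the smallest in the main comparison.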
